A study of Homo sapiens with 2 samples.

Results

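The neuroendocrine lineage genes CHGA, CHGB, SYP, ENO2, NCAM1, INSM1, SCG2, SCG3 and REST were examined in C4-2B cells treated with the ACK1 inhibitor (R)-9b. They are 9 of the 60671 distinct genes in the deposited gene counts and were taken by name from a list of known lineage genes, with no threshold on a measured value. C4-2B is a castration-resistant human prostate cancer line derived from LNCaP. The sample labels call it a breast cancer, whereas the study's text treats it as prostate cancer. The vehicle group was C4-2B cells given vehicle only, and the (R)-9b group was the same line given 1 µM (R)-9b overnight, with 1 library per group. The labels name no genetic change in either group.

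In a neuroendocrine cell, hormones and amines are stored in dense-core granules that are packed with acidic proteins, the granins, and released on a calcium signal. The repressor REST keeps this secretory and neuronal programme silent in other cell types by binding a DNA element called RE1. Prostate adenocarcinoma can turn towards this programme under therapy that blocks androgen signalling, a change called lineage plasticity, and the genes examined here are used to recognise it. The comparison of the libraries therefore reads out whether neuroendocrine transcripts were present in C4-2B cells and whether their level differed after ACK1 inhibition.

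Short stretches of the starts of 3 of these genes show elements that are known regulators of such genes. They come from RefSeq promoter windows on GRCh38.p14, which run from 250 bases before to 50 bases after a transcription start and were given for 5 of the 9 genes. Capitals mark the matched letters.
SCG3, chr15:51681511-51681536, plus strand: TTCAGCACCcacagggcGGACAGCGC
CHGA, chr14:92923086-92923113, plus strand: gcggcaccgcTGACGTCAtttccggggt
ENO2, chr12:6914450-6914478, plus strand: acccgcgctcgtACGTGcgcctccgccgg
The SCG3 stretch holds the left arm TTCAGCACC and the right arm GGACAGCGC of the RE1 element, with 8 bases between them. It lies 9 to 34 bases after the start, in the 5′ untranslated region of SCG3 in the GENCODE 29 annotation. Both arms were found on the same strand, at any spacing and in either order, in 6 of 35116 windows, or 0.0171%. The CHGA stretch holds TGACGTCA, the palindromic cAMP response element, which 1.85% of windows hold on either strand. The ENO2 stretch holds ACGTG, the core of the hypoxia response element, which 21.4% of windows hold on either strand. A SYP window held ACGTG as well, and the SCG3 window also held the E-box CAGCTG on 2 occasions, a sequence found in 17.9% of windows. These matches describe letters only. The 8-base spacing of the SCG3 arms was not compared with that of known RE1 elements. Binding was not measured.

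The authors deposited, for each gene, a count of uniquely aligned unambiguous reads, with totals of 65207444 for vehicle and 57653965 for (R)-9b. Counts were scaled with the TMM method, and every ratio is (R)-9b over vehicle. Each ratio carries an exact (Clopper-Pearson) 95% interval that covers counting error only. With 1 library per condition there was no replicate check and no test of the treatment, so the intervals compare these 2 libraries and not the conditions. Low counts were mostly even (72.2% of genes with 1 to 20 counts in vehicle and 70.3% in (R)-9b), as when both mates of a pair are counted, and intervals were also computed with the counts halved. Higher and lower are used below where the whole interval lay on one side of a ratio of 1, and a gene was called where the whole interval lay beyond 2-fold. Mitochondrially encoded genes held 1.49% of the vehicle counts and 9.54% of the (R)-9b counts, and leaving them out of the scaling moved log2 ratios by 0.0005. The line's prostate identity was visible in both libraries, where all 14 luminal prostate markers passed the minimum of 10 counts and summed to 451616 and 673142 counts. The 7 breast markers summed to 58 and 36 counts, with SCGB2A2, LALBA and CSN2 at 0 in both.

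Most of the 9 lineage genes were at or near the limit of detection under both conditions. CHGB, the granin chromogranin B, had 0 counts under both conditions. INSM1, a zinc finger repressor that drives endocrine differentiation, had 1 count in vehicle and 0 in (R)-9b. CHGA, chromogranin A, the granin measured in blood as a marker of neuroendocrine tumours, had 2 counts in vehicle and 3 in (R)-9b. A count of 0 allows up to 3 counts, which after scaling is 0.0451 CPM for vehicle and 0.0531 CPM for (R)-9b. All 3 genes lay at or under that limit in both libraries, so a difference between the libraries was not detectable at this depth, and no ratio was computed.

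SCG2, SCG3 and NCAM1 had a few counts in each library. SCG2, secretogranin II, the precursor of the peptide secretoneurin, had 8 counts in vehicle and 2 in (R)-9b. SCG3, secretogranin III, which helps to sort granins into granules, had 8 counts in vehicle and 4 in (R)-9b. NCAM1, the neural cell adhesion molecule known as CD56, had 12 counts in vehicle and 6 in (R)-9b. The vehicle value was the larger for each of these genes, but every interval included a ratio of 1. The log2 ratio was -1.76 (95% interval -5.04 to 0.56) for SCG2, -0.76 (-2.94 to 1.14) for SCG3 and -0.76 (-2.46 to 0.76) for NCAM1. These differences were within counting error. The NCAM1 exons also share 552 bases with the antisense gene NCAM1-AS1 (7 counts in vehicle and 0 in (R)-9b), and the strand setting of the counting is not given in the sources used here.

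**Figure D1:**
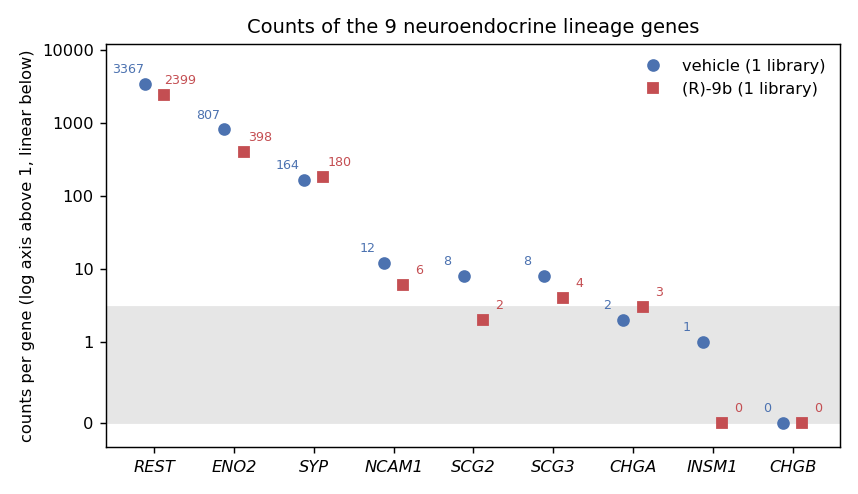
Counts per gene (vertical axis, logarithmic above 1 and linear below) for the 9 neuroendocrine lineage genes with vehicle (circles) and (R)-9b (squares), with 1 library per condition and therefore no error bars. The grey band marks up to 3 counts, the limit that a count of 0 allows. REST, ENO2 and SYP had more than 100 counts in each library, whereas the other 6 genes had 12 counts or fewer.

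Of the 9 lineage genes, ENO2 had the clearest difference. It encodes neuron-specific enolase, the gamma isoform of a glycolytic enzyme, and lies on chromosome 12 from 6913745 to 6923698 of GRCh38. It had 807 counts in vehicle and 398 in (R)-9b, or 12.1 and 7.05 CPM after scaling. The vehicle library was thus the higher, and the level with (R)-9b was 1.72-fold lower, a log2 ratio of -0.78 (95% interval -0.96 to -0.61). The interval stayed below 0 with the counts halved (-1.03 to -0.53). The comparison covered the 23446 genes whose counts summed to at least 10, of which 12.8% had a lower log2 ratio than ENO2. In bulk RNA such as this, fewer expressing cells and less RNA per cell cannot be told apart. ENO2 overlaps LRRC23 on the same strand in GENCODE 29, with 0 shared exon bases. LRRC23 had 660 counts in vehicle and 331 in (R)-9b.

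SYP, synaptophysin, is a membrane protein of synaptic and small secretory vesicles and, with chromogranin A, a standard stain for neuroendocrine cells. It had 164 counts in vehicle and 180 in (R)-9b, or 2.46 and 3.19 CPM after scaling. The (R)-9b library was nominally the higher, by 1.29-fold, a log2 ratio of 0.37 (95% interval 0.06 to 0.69). This interval included 0 with the counts halved (-0.08 to 0.82), and also with scaling by library totals (log2 ratio 0.31). A difference in SYP was therefore not established even between these libraries.

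REST was the most abundant of the 9 genes, with 3367 counts in vehicle and 2399 in (R)-9b, or 50.6 and 42.5 CPM after scaling. The level with (R)-9b was 1.19-fold lower, a log2 ratio of -0.25 (95% interval -0.33 to -0.18), and the halved counts gave -0.36 to -0.14. This lay within the middle of the distribution over all genes, of which 32.8% had a lower log2 ratio and whose middle 50% of values ran from -0.39 to 0.44. A coefficient of variation of 0.1 between cultures, which these data do not measure, would widen the interval to -0.66 to 0.16. REST shares 23 exon bases with NOA1 on the opposite strand.

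Over the list as a whole, 6 of the 9 genes had at least 10 counts. None was called higher and none lower, whereas 4.2% of all 23446 genes were called higher and 3.44% lower, 7.64% in either direction. Of the 6, the interval lay above a ratio of 1 for SYP alone and below it for ENO2 and REST, and it included 1 for NCAM1, SCG2 and SCG3. Among all genes compared, the interval lay above 1 for 29.8%, below it for 31.1%, and included 1 for 39.1%. A list of 6 genes is too short to be told apart from these shares.

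Per kilobase of exon, which allows genes to be compared, the level of REST was 6.33 scaled CPM per kilobase in vehicle and 5.32 in (R)-9b. ENO2 followed with a level of 2.83 and 1.65, and SYP with 0.472 and 0.611. SCG2 (0.0442 and 0.0130), SCG3 (0.0362 and 0.0214), NCAM1 (0.0142 and 0.00834) and CHGA (0.00968 and 0.0171) were lower again. The order REST, ENO2, SYP held in both libraries, whereas SCG2, SCG3, NCAM1 and CHGA rested on 12 counts or fewer and their order was not resolved. For the luminal gene KLK3, which encodes prostate-specific antigen, the level per kilobase was 475 in vehicle and 1137 in (R)-9b.

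**Figure D2:**
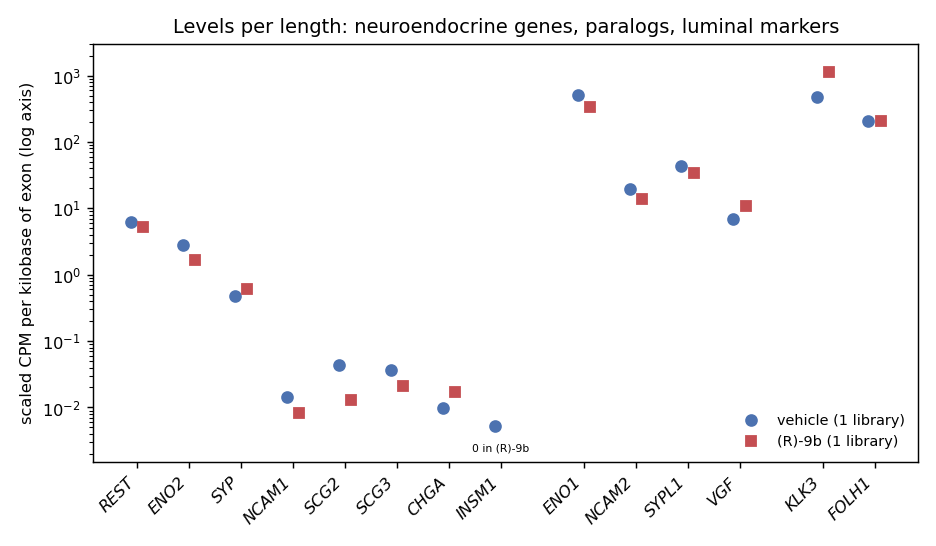
Scaled CPM per kilobase of exon (vertical logarithmic axis) with vehicle (circles) and (R)-9b (squares), with 1 library per condition. Drawn are 8 of the 9 lineage genes (including REST, the repressor of the programme), 4 paralogs and 2 luminal markers. CHGB, at 0 in both libraries, is not drawn. The lineage genes other than REST, ENO2 and SYP lie below 0.05, and KLK3 lies at 475 and 1137.

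Paralogs of these genes, some of them widely expressed and others neuronal, were read beside them. None was listed for REST. The word paralog here also takes in the granin-like genes VGF and SCG5, whose relation in sequence to the granins was not tested. Of 14 paralogs, 11 had at least 10 counts. ENO4 alone was called, and the interval lay above a ratio of 1 for 5 and below it for 4. Over all genes, 7.64% were called, and the interval lay above 1 for 29.8% and below it for 31.1%. In the enolase family ENO1, the ubiquitous alpha isoform, had 177583 counts in vehicle and 101969 in (R)-9b, a log2 ratio of -0.56 (95% interval -0.57 to -0.55). ENO2 and ENO1 were thus both lower with (R)-9b. Their intervals did not overlap with the counts as deposited but did with the counts halved. ENO3, the muscle isoform, went the other way, from 514 counts in vehicle to 958 in (R)-9b, a log2 ratio of 1.14 (0.98 to 1.29). ENO4, a sperm-associated member, had 55 counts in vehicle and 8 in (R)-9b and was called lower, with a log2 ratio of -2.54 (-3.83 to -1.47). The enolase genes are similar in sequence, and reads that fit more than one of them were left out of these counts of uniquely aligned reads.

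NCAM2, the closest relative of NCAM1, was abundant where NCAM1 was not. It had 10842 counts in vehicle and 6448 in (R)-9b, a log2 ratio of -0.51 (-0.56 to -0.47), and its level per kilobase was 19.4 and 13.6. NCAM1 is modified with polysialic acid by ST8SIA2 and ST8SIA4. ST8SIA2 had 28 counts in vehicle and 12 in (R)-9b (log2 ratio -0.98, 95% interval -2.10 to 0.04). ST8SIA4 had 53 and 74 counts (0.72, 0.19 to 1.26), an interval that reaches -0.04 from halved counts.

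Among the relatives of SYP, the synaptogyrin SYNGR1 had 1184 counts in vehicle and 1946 in (R)-9b, a log2 ratio of 0.95 (0.85 to 1.06). The widely expressed SYNGR2 had 26121 and 30457 counts (0.46, 0.44 to 0.48). SYPL1, the non-neuronal synaptophysin-like protein, was lower with (R)-9b, at 8141 and 5489 counts (-0.33, -0.38 to -0.28). SYNGR3 stood at 326 and 269 counts (-0.04, -0.28 to 0.20), and SYNGR4 at 4 and 12 (1.82, 0.10 to 3.91, but -0.66 to 5.16 from halved counts). The family therefore held members on either side of a ratio of 1.

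The granin-like genes also diverged. VGF, a granule protein cleaved into neuropeptides, had 1232 counts in vehicle and 1682 in (R)-9b, a log2 ratio of 0.69 (0.58 to 0.79), and its level per kilobase, 6.84 in vehicle, was above that of CHGA, CHGB, SCG2 and SCG3. SCG5, the chaperone 7B2 of prohormone convertase 2, had 13 and 6 counts (-0.88, -2.56 to 0.62).

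**Figure D3:**
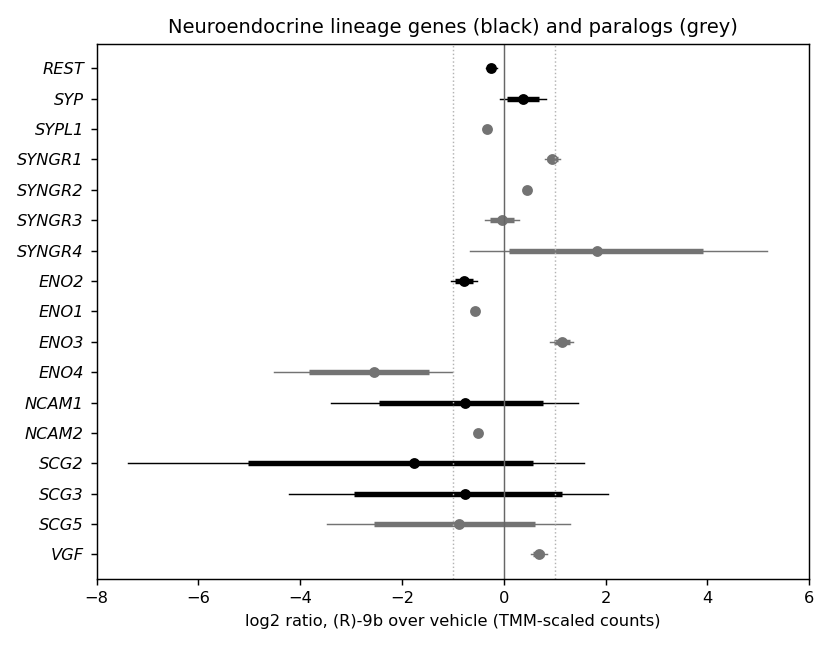
Log2 ratio of (R)-9b over vehicle (horizontal axis) for the 6 neuroendocrine lineage genes with at least 10 counts (black) and 11 paralogs (grey). Thick bars are exact 95% intervals from the counts as deposited and thin bars those from halved counts, and dotted lines mark 2-fold. ENO2 at -0.78 and REST at -0.25 lie left of 0 with both intervals, the thin bar of SYP crosses 0, and ENO4 at -2.54 is the only gene whose thick bar lies wholly beyond 2-fold.

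The transcript table of estimated counts showed which isoforms carried the signal. ENO2-201 held 85.8% of the ENO2 estimate of 268 counts in vehicle (exact 95% interval 81.1% to 89.8%) and 78.4% of 148 counts in (R)-9b (70.9% to 84.7%). ENO2-214, another protein-coding transcript, held 4.48% in vehicle (2.33% to 7.69%) and 14.9% in (R)-9b (9.56% to 21.6%), shares whose intervals did not overlap. It was picked from 8 ENO2 transcripts with an estimate after the values were seen. How often such intervals separate over all transcripts was not counted, so no isoform difference is drawn from it. The ENO2-214 shares rest on 12 and 22 estimated counts, and the intervals leave out the uncertainty of assigning reads to transcripts. SYP-201 held 88.3% of 60 counts in vehicle (77.4% to 95.2%) and 83.1% of 59 in (R)-9b (71.0% to 91.6%). The estimates for INSM1, CHGB and CHGA were 0 in both libraries. SCG2 had an estimate of 3 in vehicle and 2 in (R)-9b, SCG3 of 3 and 1, and NCAM1 of 0 and 2.

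REST differed between the gene and transcript tables. Its estimated counts were 216 in vehicle and 278 in (R)-9b, a log2 ratio of 0.61 (0.35 to 0.88), opposite in sign to the -0.25 of the gene counts. The gene table states 12 transcripts for REST, of which 10 were analysed here. The gene count was 15.6 times the estimate in vehicle and 8.63 times in (R)-9b, against 2.99 and 3.01 over all genes, so the transcripts analysed took up a smaller share of the REST reads than was usual. For ENO2 these quotients were 3.01 and 2.69. REST-205 held 77.3% of the estimate in vehicle (71.1% to 82.7%) and 85.6% in (R)-9b (80.9% to 89.5%). The direction for REST accordingly depends on the table used.

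**Figure D4:**
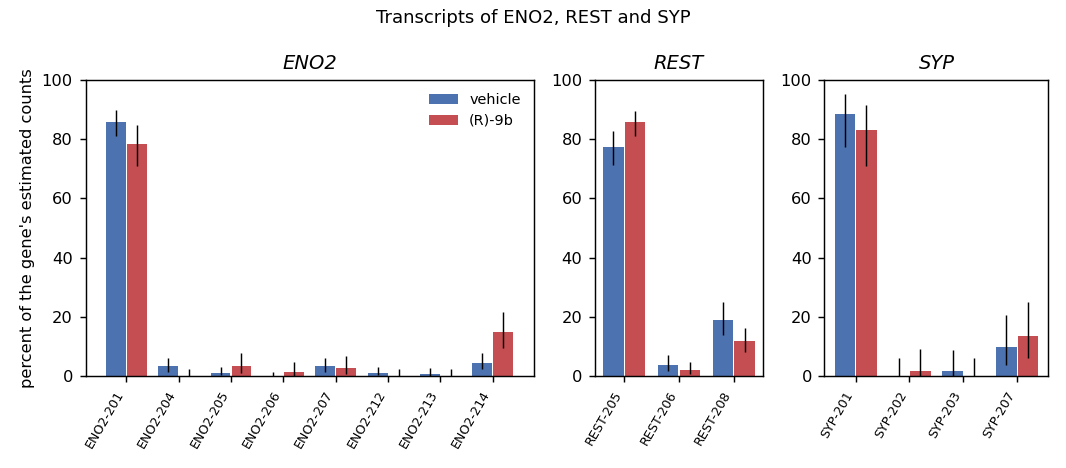
Share of each gene's estimated counts (vertical axis, percent) held by its transcripts for ENO2, REST and SYP with vehicle (blue) and (R)-9b (red). Bars start at 0 and error bars are exact 95% intervals for counting error on rounded estimates. ENO2-214 stands at 4.48% in vehicle and 14.9% in (R)-9b, on 12 and 22 estimated counts. The leading transcript of each gene holds over 77% in both libraries.

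Transcripts of the corepressors through which REST acts, and of genes for REST turnover, were present in both libraries. All 22 had at least 10 counts. None was called, beside 7.64% of all genes compared. The interval lay above a ratio of 1 for 7 and below it for 7, beside 29.8% and 31.1% of all genes. The median log2 ratio was -0.05, beside -0.005 over all genes compared. SIN3A, the scaffold of the complex bound by the amino-terminal part of REST, was lower with (R)-9b at 7863 and 5145 counts (-0.37, -0.43 to -0.32). Its relative SIN3B was higher at 4797 and 5342 counts (0.39, 0.34 to 0.45). RCOR1, which encodes the CoREST protein bound by the carboxy-terminal part, had 4253 and 3167 counts (-0.19, -0.25 to -0.12). RCOR3 gave the lowest log2 ratio of the list (-0.40, -0.48 to -0.33), and HMG20B, a subunit of the histone demethylase complex, the highest (0.54, 0.50 to 0.58). HDAC1, a histone deacetylase of both complexes, had 10986 and 11802 counts (0.34, 0.30 to 0.38). SMARCA4, the BRG1 chromatin remodelling ATPase, had 16771 and 17124 counts (0.27, 0.24 to 0.30), and USP7, a deubiquitinase of REST, 11653 and 9659 (-0.03, -0.07 to 0.01). SRRM4, the splicing factor that makes the truncated REST4 form, had 0 counts in both libraries, whereas its relative SRRM3 had 421 and 625 (0.81, 0.63 to 0.99).

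Neuronal genes known to be silenced by REST were mixed. Of 23 such genes, 6 had 0 counts in both libraries and 14 had at least 10 over both. The interval lay above a ratio of 1 for 7 of the 14 and below it for 3, beside 29.8% and 31.1% of all genes, and the median log2 ratio was 0.37, beside -0.005 over all genes. CHRNB2, a nicotinic receptor subunit, was the only called gene of this list, beside 4.2% of all genes compared called higher. It had 2 counts in vehicle and 26 in (R)-9b (log2 ratio 3.94, 1.94 to 7.06). The glutamate receptor subunit gene GRIN1 had 256 and 404 counts (0.90, 0.67 to 1.13). SYT4, a synaptotagmin of granules, had 1595 and 2170 counts (0.68, 0.59 to 0.78), and MAPK8IP2, a JNK scaffold protein and the most abundant of the list, 6443 and 4649 (-0.23, -0.29 to -0.18). Lower values were found for CHRM4, a muscarinic receptor, at 70 and 27 counts (-1.14, -1.83 to -0.48), and for TUBB3, neuronal beta-tubulin, at 47 and 18 (-1.15, -2.02 to -0.34), although the latter interval reaches 0.01 with the counts halved. STMN2, BDNF, GRIA2, CRH, CALB1 and GLRA1 were at 0 in both.

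The remaining genes of the programme were described by the same rule. Of the 14 genes for granule biogenesis and prohormone processing, 12 had at least 10 counts and none was called, beside 7.64% of all genes compared. The interval lay above a ratio of 1 for 4 and below it for 4, beside 29.8% and 31.1% of all genes. The median log2 ratio was -0.16, but 0.11 from estimated transcript counts. CPE, the carboxypeptidase that trims prohormones and the most abundant of them, had 4056 and 4376 counts (0.35, 0.29 to 0.41), and PCSK1N, an inhibitor of prohormone convertase 1, 1430 and 1719 (0.50, 0.40 to 0.61). In contrast, PTPRN2, a phosphatase-like protein of the granule membrane, was lower with (R)-9b at 582 and 289 counts (-0.77, -0.98 to -0.57). Its relative PTPRN was also lower, at 71 and 27 (-1.16, -1.85 to -0.50). The convertase PCSK2 had 0 counts in both.

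Of 18 neuroendocrine transcription factors, 10 had at least 10 counts over both libraries. NEUROD1, a driver of neuroendocrine fate, had 3 counts in vehicle and 0 in (R)-9b. MYCN, MYT1L, POU3F4 and ST18 were at 0 in both libraries. SOX2 had 0 counts in vehicle and 6 in (R)-9b, too few to be compared. POU3F2, known as BRN2, had 20 and 33 counts (0.96, 0.12 to 1.84, including 0 once halved). MYT1, a zinc finger factor, was the only called gene of this list, beside 3.44% of all genes compared called lower. It had 235 counts in vehicle and 70 in (R)-9b (-1.51, -1.92 to -1.12). HES6 and ONECUT2, the most abundant, had 5194 and 3594 counts (-0.29, -0.36 to -0.23) and 1355 and 984 counts (-0.22, -0.34 to -0.10). The median log2 ratio of the list was 0.02, but -0.04 with library totals and -0.27 from estimated transcript counts.

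Among 10 further genes associated with neuroendocrine prostate cancer, none was called, beside 7.64% of all genes compared. Of the 9 compared, 5 had an interval above a ratio of 1 and 2 had it below, beside 29.8% and 31.1% of all genes. The median log2 ratio of these genes was 0.47. PEG10, a retrotransposon-derived gene, had 6039 and 8389 counts (0.71, 0.66 to 0.76). DLL3, an inhibitory Notch ligand targeted in neuroendocrine cancers, had 859 and 967 (0.41, 0.27 to 0.54), and STMN1, a microtubule regulator, 4942 and 3261 (-0.36, -0.43 to -0.30). SEZ6 had 11 counts in vehicle and 1 in (R)-9b (-3.22, -8.65 to -0.44, but -13.40 to 0.57 from halved counts).

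The neuropeptide genes were mostly silent, with 9 of 14 at 0 counts in both libraries, among them GRP, NTS, SST and VIP. Of the 4 with at least 10 counts, 2 were called lower, beside 3.44% of all genes compared. CALCA, which encodes calcitonin and calcitonin gene-related peptide, had 978 counts in vehicle and 149 in (R)-9b and was 5.57-fold lower (log2 ratio -2.48, -2.74 to -2.23). PTHLH, the parathyroid hormone-related protein, had 113 and 7 counts and was 13.7-fold lower (-3.77, -5.12 to -2.69). CALCB, a close paralog of CALCA, had 135 and 74 counts (-0.63, -1.06 to -0.21). GAL, encoding galanin, had 3660 and 3378 counts (0.12, 0.05 to 0.19), but scaling by library totals lowers these values by 0.06 and the interval then includes 0.

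Of 19 synaptic vesicle and exocytosis genes, 15 had at least 10 counts, with a median log2 ratio of 0.29. The interval lay above a ratio of 1 for 6 and below it for 2, beside 29.8% and 31.1% of all genes. Both genes below were called, beside 3.44% of all genes called lower. SYT11, an atypical synaptotagmin, had 40 counts in vehicle and 2 in (R)-9b (-4.08, -7.18 to -2.14). RIMS2, an active zone scaffold, had 12 and 0, at least 3.39-fold lower with the (R)-9b library set to the limit of 3 counts and the 12 counts taken as exact. With the counting error of both libraries its interval ended at a log2 ratio of -1.24, and at 0 once the counts are halved. SYT7, a calcium sensor of slow exocytosis, was the most abundant and had 4436 and 5625 counts (0.58, 0.52 to 0.64), the vesicle GTPase RAB3A had 3625 and 3450 (0.17, 0.10 to 0.23), and the SNARE protein gene STX1A had 240 and 372 (0.87, 0.63 to 1.11). Over the 91 distinct genes of these 6 lists, 60 were compared, 1 was called higher and 5 lower, beside 4.2% and 3.44% of all genes, and the median log2 ratio was 0.14.

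**Figure D5:**
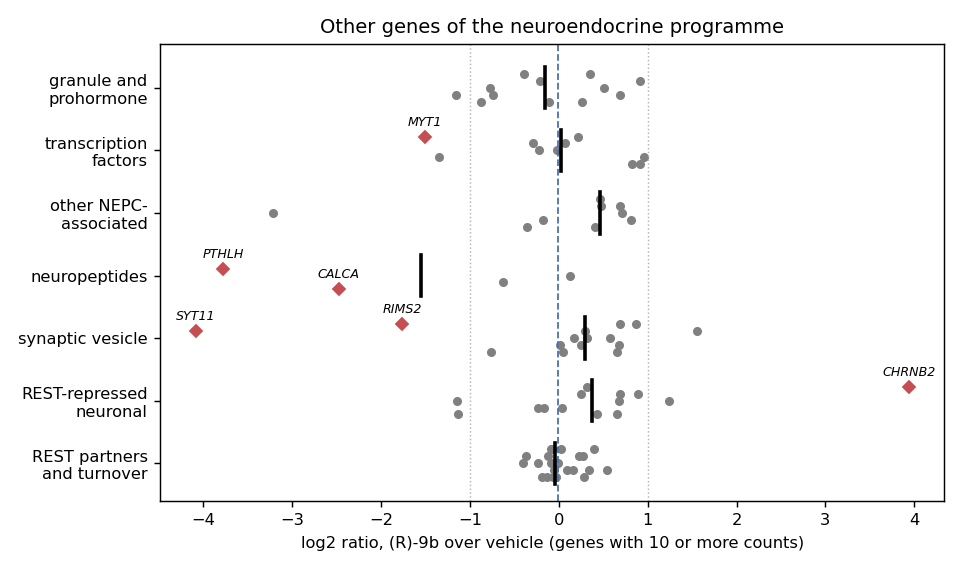
Log2 ratio of (R)-9b over vehicle (horizontal axis) for each gene with at least 10 counts in 6 lists of neuroendocrine genes and the list of REST partners, 1 point per gene, with black bars at list medians and the dashed line at the median over all genes. Red diamonds are genes whose whole 95% interval lies beyond 2-fold (dotted lines), with RIMS2 drawn at its bound. Called genes are MYT1, CALCA, PTHLH, SYT11 and RIMS2 on the left and CHRNB2 on the right, while the REST partners lie between -0.40 and 0.54.

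RB1, a tumour suppressor gene often lost in neuroendocrine prostate cancer, had 3068 counts in vehicle and 2183 in (R)-9b (-0.25, -0.33 to -0.17), lower with (R)-9b but not called. Among the luminal markers, 5 of 14 were called higher, among them KLK3, KLK2, SLC45A3 and TRPM8, and none lower, beside 4.2% and 3.44% of all genes. SLC45A3, the prostate protein prostein, had 17030 and 46406 counts (1.68, 1.66 to 1.71), FOLH1, encoding prostate-specific membrane antigen, 52660 and 44545 (-0.00, -0.02 to 0.01), and ACP3, prostatic acid phosphatase, 1340 and 843 (-0.43, -0.56 to -0.31).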

How the data were processed

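Poly-A RNA of C4-2B cells was sequenced as paired-end reads, 1 vehicle and 1 (R)-9b library, grouped by the treatment label. The submitters' processing notes name hg38, STAR 2.5.1a, featureCounts 1.4.6-p5 and Salmon 0.8.2, and the study's methods name another STAR release. The authors deposited gene counts (whole numbers, not normalized), the same values as CPM and as moderated log2 CPM, and a transcript table with estimated counts (expected counts, rounded here) and CPM. A second transcript table was not used. Repeated lines of the gene counts (200), identical to the line kept, were dropped.

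Scaling factors were from edgeR 4.0.16 (TMM; R 4.3.3). Ratios and exact (Clopper-Pearson) 95% intervals were obtained for genes whose counts summed to at least 10, using scipy 1.17.1 with pandas 2.3.3 and numpy 2.4.6 in Python 3.11.15, and the code was tested on simulated data. No p-value was computed, because there was 1 library per condition. Exon lengths and overlaps came from GENCODE 29, which need not be the annotation used by the authors. Figures were drawn with matplotlib 3.10.9.

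The genes, lists and rules were chosen with earlier results of these data known. Named genes were the 9 genes, their paralogs with at least 10 counts and, from each other list, the most abundant genes, those with the interval farthest from 0 in each direction and those called. Other genes, including those at 0, were named after their values were seen. Lists overlap, for example 5 genes in the vesicle and REST-repressed lists. Alternatives were other scalings (library totals, DESeq2 1.42.0 size factors, upper quartile, TMM without mitochondrially encoded genes), the other deposited values, other minimum counts, halved counts, an added coefficient of variation of 0.1 or 0.25, 5 counts added, and other rules for a call. Some genes of the lists are not reported here by name.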

Additional observations from a re-analysis of the deposited data

How the results depend on the processing

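No paired analysis was possible because each condition had 1 library. Log2 ratios of ENO2, NCAM1, SCG2 and SCG3 kept their direction under every alternative that gave a value, and ENO2 ranged from -0.84 with library totals to -0.61 with estimated transcript counts. Its interval included 0 with an assumed coefficient of variation of 0.25 (log2 ratio -0.78). REST reversed to 0.61 with estimated transcript counts, a table in which 10 of its 12 transcripts were analysed (the cause was not tested), and its interval included 0 with a coefficient of variation of 0.1 or 0.25 (-0.25). The interval of SYP included 0 with library totals (0.31), estimated transcript counts (0.22), halved counts and either coefficient of variation (0.37). Estimated transcript counts gave no ratio for NCAM1, SCG2 and SCG3. The number of the 9 genes called lower was 1 with the point ratio (SCG2) or a 1.5-fold rule (ENO2) in place of 0, and the number called higher was 0 throughout. Over the 91 programme genes, the number called higher, 1, became 0 with estimated transcript counts or a minimum of 50 counts, 3 with the point ratio and 6 with the 1.5-fold rule. The number called lower, 5, became 2 with estimated transcript counts, 3 with a minimum of 50 counts, halved counts or a coefficient of variation of 0.25, and 10 with the point ratio. Over all genes, the 985 called higher and 807 called lower became 513 and 520 with estimated transcript counts, 638 and 608 with a minimum of 50 counts, 609 and 535 with halved counts, 466 and 310 with a coefficient of variation of 0.25, 2695 and 2235 with the point ratio, and 2042 and 1814 with the 1.5-fold rule. Of the medians of the 6 programme lists, those of the granule genes and the transcription factors changed sign, from -0.16 to 0.11 and from 0.02 to -0.27 with estimated transcript counts, and the latter also to -0.00 with DESeq2 size factors, -0.04 with library totals and -0.26 with a minimum of 50 counts. Transcript shares from the deposited transcript CPM lay within the intervals given. Genes with few counts limit the comparison, and the spread between cultures was not measured.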

Other observations

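Markers of other lineage states were also read. Of 14 basal, mesenchymal and stem-like markers, 7 had at least 10 counts, 5 had an interval above a ratio of 1 and 1 was called higher, beside 29.8% and 4.2% of all genes compared. SNAI2, a zinc finger repressor of epithelial adhesion genes, had 392 counts in vehicle and 1572 in (R)-9b and was 4.73-fold higher (log2 ratio 2.24, 95% interval 2.08 to 2.40). FN1, encoding fibronectin, had 367086 and 602099 counts (0.95, 0.95 to 0.96), SNAI1 had 159 and 252 (log2 ratio 0.90), and VIM, encoding vimentin, 3460 and 3617 (0.30, 0.23 to 0.37). TWIST1 had 4 and 14 counts (2.05, 0.37 to 4.11, but -0.35 to 5.35 from halved counts). KRT14 had 30 and 14 (-0.86, -1.89 to 0.10) and CD44 6 and 4 (-0.35, -2.62 to 1.73). Too few to be compared were KRT5 (5 and 4), ZEB1 (6 and 1), ZEB2 (5 and 0), PROM1 (0 and 2) and ALDH1A1 (0 and 2). CDH2 and TP63 had 0 counts in both libraries. The median log2 ratio of the list was 0.90, but 0.11 with a minimum of 1 count.

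Genes that mark neurons and glia were partly present. MAP2, a microtubule protein of dendrites, had 3794 counts in vehicle and 2631 in (R)-9b (-0.29, -0.36 to -0.22), and MBP, whose gene also makes non-myelin transcripts, 5215 and 2930 (-0.59, -0.66 to -0.53). NEFL, a neurofilament gene, had 332 and 301 (0.10, -0.13 to 0.33). RBFOX3 had 8 and 4 counts, and NEFM and ELAVL4 had 0 in both. The 7 immune markers summed to 12 and 19 counts, with PTPRC at 0 in both libraries and CD68 at 4 and 12, and the 8 stromal and endothelial markers to 2200 and 2729 counts, of which COL1A1 had 1114 and 2004, VWF 769 and 411, and ACTA2 96 and 31 (-1.39, -2.03 to -0.80). DCN had 0 and 2 counts. Of the breast markers, GATA3 had 38 and 30 counts (-0.10, -0.84 to 0.63) and PGR 10 and 2 (-2.08, -5.31 to 0.15). The part of other cells in any result was not tested.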
